A study of Mus musculus with 8 samples.

Results

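The RNA levels of 39 autophagy and lysosome control genes were followed in the livers of fasted mice. The genes were taken by name, for what their proteins do, but with earlier results of these data known. All 39 were found among the 34547 genes of the files. They fall into 7 steps of the pathway: the ULK1 complex (Ulk1, Ulk2, Atg13, Rb1cc1, Atg101), the class III PI3-kinase complex (Becn1, Pik3c3, Pik3r4, Atg14, Uvrag), the effectors of PI3P and the suppliers of lipid (Wipi1, Wipi2, Atg2a, Atg2b, Atg9a), the conjugation enzymes (Atg3, Atg4a, Atg4b, Atg4c, Atg4d, Atg5, Atg7, Atg10, Atg12, Atg16l1), the ATG8 proteins (Map1lc3a, Map1lc3b, Gabarap, Gabarapl1, Gabarapl2), the cargo receptors (Sqstm1, Nbr1, Optn, Tax1bp1, Calcoco1), and the lysosome regulators and membrane proteins (Tfeb, Tfe3, Lamp1, Lamp2).

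Messenger RNA of whole liver was sequenced from stranded libraries in 4 mice that received an adeno-associated virus (AAV, a vector that reaches the liver from the blood) with mouse Nudt7, a peroxisomal enzyme that cleaves coenzyme A species, and in 4 mice that received the virus with GFP, a fluorescent protein without a role in metabolism. Every mouse was C57BL/6J and was given 2.5e+11 particles in 150 µl through the tail vein at 8 weeks of age. Every mouse had then gone 24 h without food when its liver was taken, 3 to 4 weeks after injection and at 11 to 12 weeks of age. The comparison addressed how Nudt7 overexpression altered the fasted liver's transcriptome. Both groups therefore carried a virus and both were fasted; no fed liver and no uninjected liver was analysed here, and neither the sex of the mice nor the promoter that drove the transgene is given in the sources used here. Sample titles carry a different number for each liver but do not state how the animals were housed or processed, so p-values measure the spread between these 8 livers. In bulk liver, fewer cells of a type and less RNA per cell cannot be told apart.

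Macroautophagy wraps cytoplasm, lipid and organelles in a double membrane, the autophagosome, and delivers them to the lysosome for breakdown. In fasting, when mTORC1 is quiet and AMPK is active, the ULK1 complex starts the process and the PI3-kinase complex makes the lipid PI3P, which recruits WIPI proteins and the lipid transfer protein ATG2. The conjugation enzymes then attach ATG8 proteins to the growing membrane, cargo receptors tie ubiquitylated cargo to the ATG8 proteins, and the fused lysosome digests the content. TFEB and TFE3 are transcription factors that enter the nucleus in starvation and bind the CLEAR element of lysosomal and autophagy genes. The liver depends on this pathway in a fast, when it releases amino acids and lipids from its own cytoplasm. RNA levels do not measure the flow of material through the pathway.

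The promoter windows of 4 genes are printed because they show the range of CLEAR-like content among the 39 genes, from Lamp1 with the most matches to Wipi1, which had the smallest p among the 39 genes and no match. Each window runs from 250 bases before to 50 bases after the start of a RefSeq transcript on GRCm38.p6, written 5′ to 3′ on the gene's strand. Capitals mark CACGTG, the core of the CLEAR element, and in Atg3 also its longer form TCACGTGA. The windows are chr8:13158911-13159210 on the plus strand for Lamp1, chr16:45158579-45158878 on the plus strand for Atg3, chr14:47568385-47568684 on the minus strand for Atg14 and chr11:109611340-109611639 on the minus strand for Wipi1.
Lamp1 promoter: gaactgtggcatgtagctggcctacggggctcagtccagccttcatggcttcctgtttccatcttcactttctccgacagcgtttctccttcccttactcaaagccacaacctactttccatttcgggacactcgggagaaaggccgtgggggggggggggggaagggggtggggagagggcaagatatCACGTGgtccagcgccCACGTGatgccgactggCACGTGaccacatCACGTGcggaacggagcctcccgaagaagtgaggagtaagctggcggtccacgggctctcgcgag
Atg3 promoter: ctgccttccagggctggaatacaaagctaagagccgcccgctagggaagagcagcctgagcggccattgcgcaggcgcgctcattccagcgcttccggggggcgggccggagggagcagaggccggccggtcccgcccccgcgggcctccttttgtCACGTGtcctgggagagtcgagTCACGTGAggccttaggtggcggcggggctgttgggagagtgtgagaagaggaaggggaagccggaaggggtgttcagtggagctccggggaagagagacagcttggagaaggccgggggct
Atg14 promoter: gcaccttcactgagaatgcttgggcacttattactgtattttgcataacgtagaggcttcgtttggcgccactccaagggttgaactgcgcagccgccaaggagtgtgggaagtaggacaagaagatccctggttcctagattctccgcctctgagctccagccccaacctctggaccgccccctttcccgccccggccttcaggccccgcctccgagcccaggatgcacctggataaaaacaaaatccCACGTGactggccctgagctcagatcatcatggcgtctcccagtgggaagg
Wipi1 promoter: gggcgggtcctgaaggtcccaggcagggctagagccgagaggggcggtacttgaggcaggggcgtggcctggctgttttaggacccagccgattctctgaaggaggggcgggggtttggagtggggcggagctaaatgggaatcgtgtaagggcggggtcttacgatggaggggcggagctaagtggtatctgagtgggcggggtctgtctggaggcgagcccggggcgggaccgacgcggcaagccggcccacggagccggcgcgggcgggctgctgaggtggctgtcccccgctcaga

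The Lamp1 window held CACGTG at 4 places, beginning 61, 45, 28 and 15 bases before the start. In Atg3 it began 94 and 71 bases before the start, the second as part of TCACGTGA, and in Atg14 it began 1 base before the start. RefSeq windows were found for 33 of the 39 genes, 40 windows in all; Rb1cc1, Becn1, Pik3c3, Atg12, Atg16l1 and Map1lc3a had none in the table used. CACGTG, searched on both strands, was in 5 of the 40 windows (12.5%; Atg14, Atg3, Atg5, Atg7 and Lamp1) and in 7.15% of all 32851 windows of that length. Among the printed windows and those with CACGTG, the Atg7, Atg14 and Wipi1 windows lie wholly inside the gene as annotated in GENCODE M21. The Atg7 window begins at 114670846 and the gene, on the plus strand, at 114643097. The Atg14 window reaches to 47568684 and the gene, on the minus strand, to 47570649. The Wipi1 window reaches to 109611639 and the gene, on the minus strand, to 109611967. The lack of a match for Wipi1 therefore does not cover the start of the gene as annotated there. TCACGTGA, which contains CACGTG, was in 1 of the 40 windows and 0.974% of all windows, and the full CLEAR palindrome, which adds a G before and a C after it, was in 0 of 40 and 0.326%. The antioxidant response element TGACNNNGC was in 4 windows (10.0%; Atg13, Map1lc3b, Tax1bp1 and Ulk2) against 12.4% of all. The FOXO element GTAAACA was in 0 of 40 windows against 3.65% of all, and the cAMP response element TGACGTCA was in 1 (Atg5) against 1.79%. The windows of the 39 genes were richer in G and C than others, with a median GC content of 59.7% against 52.7% and a median of 19 CpG dinucleotides against 7. A match describes the letters in the window and does not show binding.

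Estimated reads ran from 11187806 to 23640734 per library, and 13678 genes had enough of them to be tested. Nudt7 itself stood at 60.7 to 79.9 CPM (reads per 1e+06 of the TMM-scaled library) in GFP livers and at 1301 to 3569 CPM in Nudt7 livers. One library stood apart before any gene group was compared. In a principal component analysis, whose first axis carried 36.3% of the variance, Nudt7 replicate 3 lay at 63.1 and the other 7 libraries between −19.9 and 2.83. The same library held the summed red blood cell markers at 1813 CPM, against 303 to 642 CPM in the other libraries. Its share of mitochondrial reads was 5.85%, the lowest of the 8, where Nudt7 replicate 4 had the highest at 11.4%. The summed hepatocyte markers spanned 78521 to 98019 CPM in GFP livers and 64410 to 97536 CPM in Nudt7 livers, and every one of their 8 defining genes was detected. The Nudt7 maximum was replicate 3, and the other Nudt7 livers reached at most 84214 CPM. Of the 8 markers 5 had negative fold changes, with a median of −0.14, which was −0.29 without that library, and none had an edgeR adjusted p under 0.05. At an unadjusted p under 0.05, 3 of the 8 were lower in Nudt7 livers, where 4.03% of all genes tested were. These were Tat (−0.85), Cps1 (−0.45) and Hnf4a (−0.43). Tat and Hnf4a had groups apart, where 3.00% of all genes tested were lower without overlap. Tat had an adjusted p under 0.05 with DESeq2 and with limma-voom with sample weights. The share of all genes tested that passed with either of these is not given here. The 6 cholangiocyte markers summed to 17.7 to 29.8 CPM in GFP livers and 32.3 to 43.0 CPM in Nudt7 livers, without overlap. Of the 5 that were tested, 4 had positive fold changes and 1 a negative one, and 0 had an edgeR adjusted p under 0.05. At an unadjusted p under 0.05, 2 were higher (4.25% of all genes tested), and 1 was higher with groups apart (2.74% of all). Kupffer cell markers (125 to 206 against 112 to 246 CPM), endothelial markers (397 to 438 against 358 to 404 CPM) and stellate cell markers (249 to 289 against 258 to 282 CPM) overlapped between the groups. No marker of these lists was at 0 in all libraries, and the part of other cell types in the results on the 39 genes was not tested.

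The fasted control livers expressed all 39 genes, over a range of 90.7-fold. Levels are given in TPM, which is normalised for transcript length and sums to 1e+06 per library, so that genes can be compared. The cargo receptor gene Sqstm1 was the highest at 394 ± 12.3 TPM in GFP livers (SD, n = 4), above 98.2% of the genes tested, and Atg10, the gene of the enzyme that joins ATG12 to ATG5, was the lowest at 4.34 ± 0.293 TPM, counting all transcripts of a gene. In protein-coding transcripts alone Atg4d (1.48 TPM) was below Atg10 (4.06 TPM). Of the 39 genes, 8 averaged over 100 TPM in GFP livers and 6 averaged under 10 TPM, and 34 lay above the median of all genes tested. Summed levels differed widely between the steps. The 5 genes of the ULK1 complex summed to 166 ± 13.3 TPM in GFP livers, the PI3-kinase complex to 86.0 ± 5.18 TPM, the PI3P effectors to 153 ± 13.8 TPM and the 10 conjugation enzymes to 208 ± 10.8 TPM. The 5 ATG8 genes reached 670 ± 27.4 TPM, the cargo receptors 753 ± 9.34 TPM and the 4 lysosomal genes 594 ± 37.0 TPM. The ATG8, receptor and lysosomal groups, each of 4 or 5 genes, thus each held more TPM than any group of enzymes and scaffolds.

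**Figure D1:**
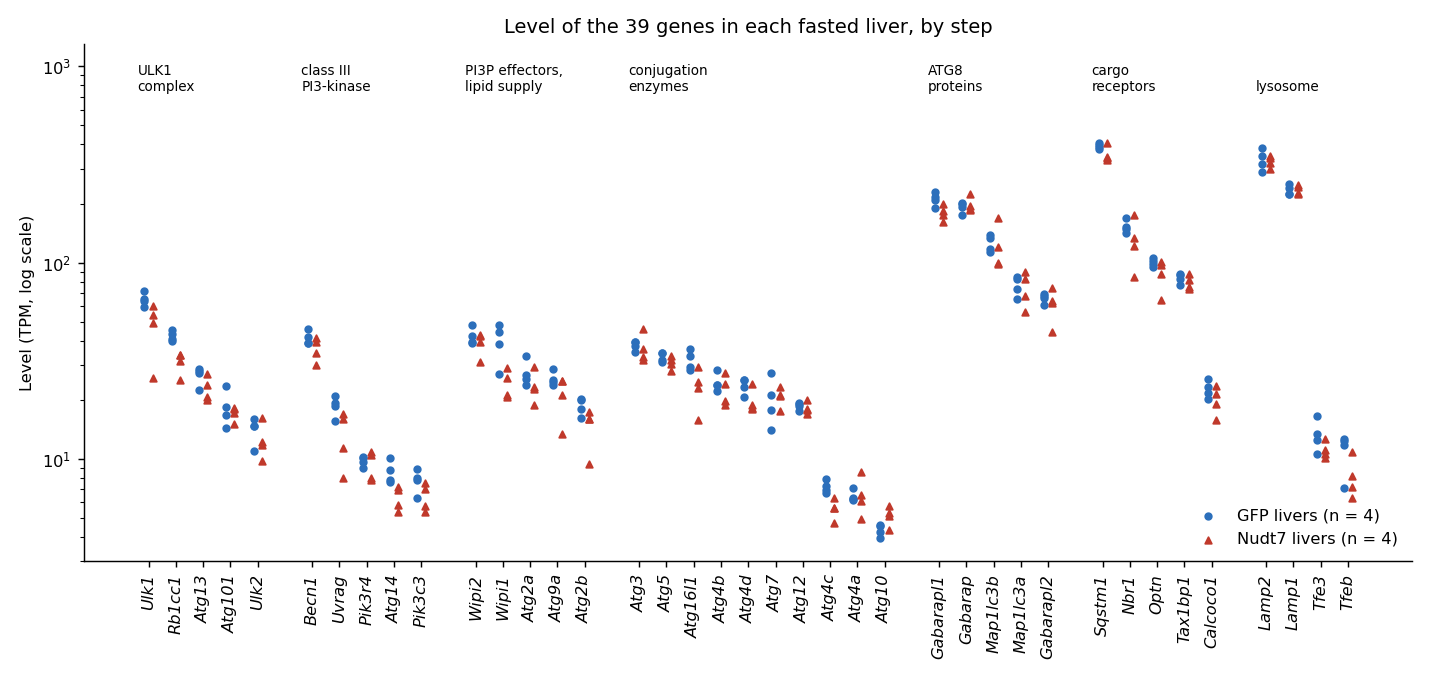
Level of each of the 39 genes in TPM (log scale) in each liver, grouped by step and ordered within a step by the GFP mean; blue circles are GFP livers and red triangles Nudt7 livers (n = 4 each). The ATG8 genes, the cargo receptors other than Calcoco1, and Lamp1 and Lamp2 lie above nearly all genes of the earlier steps, and most genes overlap between the groups.

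Among the initiation genes, Ulk1, which encodes the starting kinase, was the most abundant in TPM. It stood at 59.2, 63.5, 71.9 and 65.2 TPM in GFP replicates 1 to 4 and at 60.2, 49.0, 25.9 and 53.9 TPM in Nudt7 replicates 1 to 4. The groups overlapped on this scale through Nudt7 replicate 1, and Nudt7 replicate 3 lay lowest. In all 8 livers Ulk1 exceeded Rb1cc1, the gene of the scaffold FIP200, in TPM over all transcripts, and Rb1cc1 exceeded Atg13. In coding transcripts Rb1cc1 (12.6 ± 1.67 TPM in GFP livers) was instead lowest in its complex together with Ulk2 (12.9 ± 1.86 TPM), against 17.7 TPM for Atg13. Atg101 exceeded Ulk2, the gene of the second kinase, in 8 of 8 livers as well, with GFP ranges that overlapped. In the lipid kinase complex, Becn1, the gene of the scaffold Beclin 1, led over all transcripts with 41.7, 39.1, 45.7 and 39.02 TPM in GFP replicates 1 to 4. In Nudt7 replicates 1 to 4 it stood at 39.6, 41.1, 30.0 and 34.5 TPM. The Becn1 groups overlapped in TPM, and again Nudt7 replicate 3 was lowest. In CPM that library was instead the highest of the Nudt7 livers for Becn1, at 54.9 CPM. Pik3c3, which encodes the catalytic subunit VPS34, was the lowest of its complex over all transcripts at 7.74 ± 1.08 TPM in GFP livers, and Atg14, which marks the autophagy form of the complex, was not separable from it in level (above it in 4 of 8 livers). In coding transcripts alone Becn1 was the lowest of the complex at 4.31 TPM in GFP livers, below Pik3r4 (5.85 TPM), Pik3c3 (7.42 TPM), Uvrag (7.57 TPM) and Atg14 (8.56 TPM). Becn1 lies on chromosome 11 (101285952 to 101302286, minus strand, GRCm38).

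Wipi2, whose product brings the conjugation machinery to PI3P, stood at 38.8, 42.5, 48.3 and 39.4 TPM in GFP replicates 1 to 4 and at 42.1, 39.5, 31.1 and 43.0 TPM in Nudt7 replicates 1 to 4. These groups overlapped. Wipi2 exceeded its relative Wipi1 in 6 of 8 livers, with overlapping ranges in GFP livers; in coding transcripts Wipi1 had the higher GFP mean (39.4 against 33.6 TPM). Among the conjugation enzymes the E2-like enzyme gene Atg3 led, with 39.6, 37.7, 34.9 and 39.5 TPM in GFP replicates 1 to 4 and 36.5, 32.9, 31.7 and 46.1 TPM in Nudt7 replicates 1 to 4. In TPM its highest liver was Nudt7 replicate 4 and its lowest Nudt7 replicate 3, while in CPM its lowest was Nudt7 replicate 2 (42.1 CPM). The 4 genes of the ATG4 proteases, which prime and release the ATG8 proteins, formed over all transcripts a higher pair, Atg4b (24.5 ± 2.73 TPM in GFP livers) and Atg4d (23.6 ± 2.05 TPM), and a lower pair, Atg4c (7.20 ± 0.512 TPM) and Atg4a (6.44 ± 0.423 TPM). Neither pair could be ordered, since the first named gene exceeded the other in 6 of 8 and 5 of 8 livers. The pairs did not hold in coding transcripts, where Atg4b stood at 9.32 TPM, Atg4c at 6.76 TPM, Atg4a at 5.22 TPM and Atg4d at 1.48 TPM in GFP livers. On GRCm38, Wipi2 lies on chromosome 5 (142627698 to 142670588, plus strand) and Atg3 on chromosome 16 (45158785 to 45188538, plus strand).

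The ATG8 genes were led by Gabarapl1 and Gabarap of the GABARAP branch. Gabarapl2, of the same branch, had the lowest GFP mean of the ATG8 genes, at 65.8 ± 3.42 TPM. Gabarapl1 stood at 228, 215, 189 and 209 TPM in GFP replicates 1 to 4 and at 175, 183, 160 and 199 TPM in Nudt7 replicates 1 to 4. The groups overlapped in TPM, with Nudt7 replicate 3 lowest, while in CPM that library was the highest of the Nudt7 livers (267 CPM). Gabarap, at 192 ± 12.1 TPM in GFP livers, was below Gabarapl1 in 5 of 8 livers and above Map1lc3b, the gene of the widely used marker LC3B, in 8 of 8. Map1lc3b, at 125 ± 12.1 TPM, exceeded Map1lc3a in 8 of 8 livers and Map1lc3a exceeded Gabarapl2 in 7 of 8. Among the receptors, Sqstm1, which encodes p62, stood at 408, 380, 388 and 399 TPM in GFP replicates 1 to 4 and at 341, 406, 344 and 334 TPM in Nudt7 replicates 1 to 4. In TPM only replicate 2 of the Nudt7 livers reached the range of the GFP livers. In CPM the Sqstm1 groups overlapped, at 407 to 530 CPM in GFP livers and 403 to 588 CPM in Nudt7 livers, with Nudt7 replicate 3 highest. Over all transcripts, Sqstm1 exceeded Nbr1, Nbr1 exceeded Optn and Tax1bp1 exceeded Calcoco1 in every liver. On that count Sqstm1 was 2.58-fold above Nbr1 in GFP livers. In coding transcripts Tax1bp1 (80.6 TPM in GFP livers) instead stood above Nbr1 (68.0 TPM) and Optn (62.9 TPM). Sqstm1 (339 TPM) remained highest and Calcoco1 (21.0 TPM) lowest. On GRCm38, Gabarapl1 lies on chromosome 6 (129533160 to 129542346, plus strand) and Sqstm1 on chromosome 11 (50199366 to 50210827, minus strand).

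Lamp2 and Lamp1 encode the main glycoproteins of the lysosomal membrane, and Lamp2 also serves chaperone-mediated autophagy. Lamp2 (chromosome X, 38401357 to 38456454, minus strand) stood at 385, 348, 290 and 317 TPM in GFP replicates 1 to 4 and at 347, 320, 299 and 340 TPM in Nudt7 replicates 1 to 4. The Nudt7 livers lay within the GFP range. Lamp2 exceeded Lamp1 in 8 of 8 livers, 1.43-fold in GFP livers, and Lamp1 exceeded Tfe3 by 17.7-fold. Tfeb and Tfe3 were low, at 11.0 ± 2.58 and 13.2 ± 2.52 TPM in GFP livers, and Tfe3 was the higher in 7 of 8 livers over all transcripts (GFP means in coding transcripts were 9.80 TPM for Tfe3 and 10.1 TPM for Tfeb). The spread between GFP livers had a median coefficient of variation of 8.72% over the 39 genes. It was smallest for Sqstm1 (3.13%) and Atg12 (4.30%) and above 20% for 4 genes, among them Atg7 (28.1%), Tfeb (23.5%) and Wipi1 (23.0%).

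For 6 of the 39 genes less than 50% of the TPM in GFP livers came from transcripts annotated as protein-coding. These were Atg4d (6.30%), Becn1 (10.4%), Rb1cc1 (29.7%), Atg4b (38.0%), Uvrag (40.7%) and Nbr1 (44.6%), and 20 genes were above 90%. The levels of these 6 genes in TPM therefore count mostly transcripts with retained introns, decay targets and other transcripts annotated as not coding. Sequence shared with other genes was small for most. Atg4a shared 60.8% of its words of 31 bases with its pseudogene Atg4a-ps, which was assigned at most 0.137 TPM in any library; Gabarapl2 shared 15.2%, Rb1cc1 9.36% and Map1lc3b 7.74%, in each case mostly with 1 predicted gene. These percentages describe shared sequence and are not an error of the level. How far the values of these 4 genes depend on the assignment of shared reads was not tested.

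No gene of the 39 passed the test for a difference between Nudt7 and GFP livers. All 39 passed the filter on low counts and were tested, and 0 had an edgeR quasi-likelihood adjusted p under 0.05, where 0.117% of all genes tested did (0.0439% higher and 0.0731% lower). At an unadjusted p under 0.05 there were 6 (15.4%), against 8.28% of all genes tested. All 6 were lower in Nudt7 livers, where 4.03% of all genes tested were lower at that p and 4.25% higher. In CPM, 5 genes (12.8%) had groups that did not overlap, all lower in Nudt7 livers, against 3.00% of all genes lower without overlap, 2.74% higher and 5.75% in either direction. DESeq2 and limma-voom also had 0 adjusted p under 0.05, each with 6 genes at an unadjusted p under 0.05. Fold changes were small: 27 of the 39 genes lay within ±0.2 on the log2 scale, the median was −0.04 against a median of −0.00089 over all genes tested, and 23 were negative and 16 positive. The 95% intervals of all 39 lay within −1 to 1, from −0.97 for Wipi1 to 0.75 for Atg10 and Atg4a. A change of 2-fold was thus outside the interval of each gene, while smaller changes in either direction were not resolved.

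**Figure D2:**
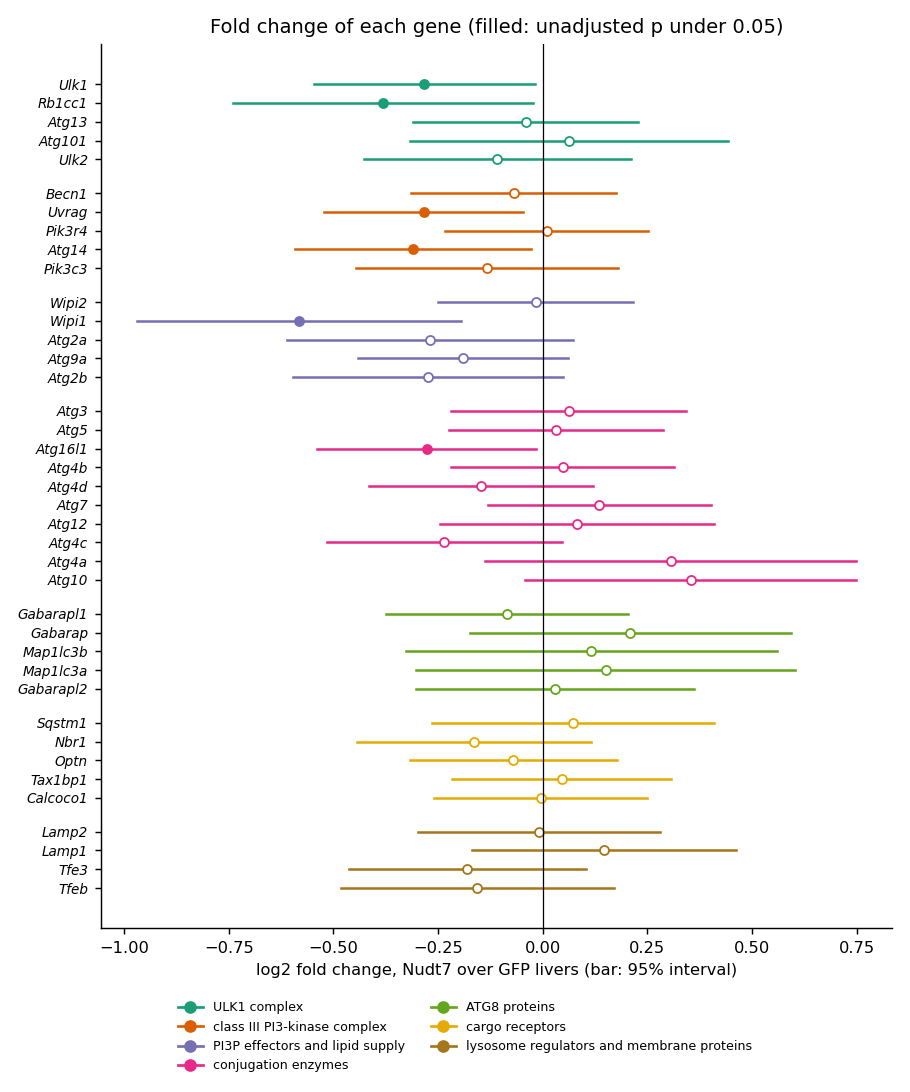
log2 fold change of each of the 39 genes, Nudt7 over GFP livers (n = 4 each), with its 95% interval from edgeR; colours give the step and filled points an unadjusted p under 0.05. The 6 filled points all lie below 0, at −0.28 to −0.58, and none has an adjusted p under 0.05.

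Most of the lower values lay in the early steps. Of the 15 genes in the first 3 steps, from the ULK1 complex to the lipid suppliers, 13 had negative fold changes with a median of −0.19, and they included 5 of the 6 genes with an unadjusted p under 0.05. Of the 24 genes in the later 4 steps, 10 were negative, with a median of 0.04. The difference between early and late steps was seen after the values were known and was not tested. By step, median log2 fold changes were −0.11 for the ULK1 complex (1 positive, 4 negative), −0.13 for the PI3-kinase complex (1 and 4) and −0.27 for the PI3P effectors (0 and 5). They were 0.06 for the conjugation enzymes (7 and 3), 0.12 for the ATG8 genes (4 and 1), −0.0046 for the cargo receptors (2 and 3) and −0.08 for the lysosomal genes (1 and 3). Without Nudt7 replicate 3 the medians were −0.09, −0.15, −0.14, −0.03, −0.10, −0.02 and −0.07 in the same order. The early genes were then negative in 14 of 15 cases and the later ones in 17 of 24, and the medians of the conjugation enzymes and the ATG8 genes were positive with that library and negative without it. Over all 39 genes, 31 were then negative, with a median of −0.09, while 49.1% of all genes tested were.

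Wipi1, whose product binds PI3P on the forming autophagosome and whose RNA is used as a marker of autophagy induction, had the smallest p of the 39 genes. The gene lies on chromosome 11 (109573331 to 109611967, minus strand, GRCm38). It stood at 48.3, 75.1, 64.7 and 87.8 CPM in GFP replicates 1 to 4 and at 37.8, 51.1, 48.0 and 47.4 CPM in Nudt7 replicates 1 to 4. The groups overlapped because GFP replicate 1 lay below Nudt7 replicate 2; the other 3 GFP livers lay above all Nudt7 livers. The log2 fold change was −0.58 (SE 0.18, 95% interval −0.97 to −0.20), with an unadjusted p of 0.00673 and an edgeR adjusted p of 0.368. The value without Nudt7 replicate 3 was −0.59. Over the 17 other ways of processing the data that were run, its unadjusted p was under 0.05 in all 17 and its adjusted p was never under 0.162. Its relative Wipi2 had a log2 fold change of −0.02 (SE 0.11); the difference between both genes was not tested.

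Uvrag and Atg14 encode alternative subunits of the lipid kinase complex, Atg14 for the autophagosome and Uvrag for endosomes and late steps. Uvrag (chromosome 7, 98885021 to 99141141, minus strand) stood at 37.1, 41.0, 38.2 and 37.0 CPM in GFP replicates 1 to 4 and at 33.3, 30.9, 33.8 and 28.1 CPM in Nudt7 replicates 1 to 4. Every Nudt7 liver lay below all GFP livers. The estimate was a log2 fold change of −0.28 (SE 0.11, edgeR adjusted p = 0.520), and from protein-coding transcripts alone it was −0.17. Atg14 (chromosome 14, 47540893 to 47570649, minus strand) stood at 18.2, 23.7, 19.9 and 20.1 CPM in GFP replicates 1 to 4 and at 16.7, 14.1, 17.3 and 17.9 CPM in Nudt7 replicates 1 to 4. Its groups did not overlap either, though GFP replicate 1 and Nudt7 replicate 4 were close. The log2 fold change was −0.31 (SE 0.13, edgeR adjusted p = 0.570). For both genes the value without Nudt7 replicate 3 was as far from 0, at −0.31 for Uvrag and −0.32 for Atg14. The 3 other genes of the complex had values of −0.07 (Becn1, SE 0.11), −0.13 (Pik3c3, SE 0.14) and 0.01 (Pik3r4, SE 0.11).

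In the ULK1 complex the kinase gene Ulk1 and the scaffold gene Rb1cc1 were the ones with an unadjusted p under 0.05. Ulk1 (chromosome 5, 110784488 to 110810097, minus strand) stood at 124, 114, 121 and 146 CPM in GFP replicates 1 to 4 and at 111, 100.2, 97.0 and 107 CPM in Nudt7 replicates 1 to 4. Every Nudt7 liver was below every GFP liver, by a narrow margin between Nudt7 replicate 1 and GFP replicate 2. The log2 fold change was −0.28 (SE 0.12, edgeR adjusted p = 0.581). Rb1cc1 (chromosome 1, 6206197 to 6276648, plus strand) stood at 72.3, 55.4, 53.5 and 53.5 CPM in GFP replicates 1 to 4 and at 45.7, 48.7, 32.6 and 53.0 CPM in Nudt7 replicates 1 to 4. The groups did not overlap, but GFP replicate 1 stood far above the other GFP livers and Nudt7 replicate 3 far below the other Nudt7 livers. The log2 fold change was −0.38 (SE 0.16, edgeR adjusted p = 0.581), and −0.24 without Nudt7 replicate 3, over 1.5 times nearer to 0. Ulk2, Atg13 and Atg101 had values of −0.11 (SE 0.15), −0.04 (SE 0.12) and 0.06 (SE 0.17), and of −0.05, −0.08 and −0.09 without that library.

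Among the conjugation enzymes, Atg16l1 had an unadjusted p under 0.05 and Atg4c had groups apart. Atg16l1, whose product places the ATG12-ATG5 conjugate on the membrane (chromosome 1, 87755870 to 87792428, plus strand), stood at 48.9, 60.6, 62.8 and 58.3 CPM in GFP replicates 1 to 4 and at 44.5, 53.1, 45.0 and 47.8 CPM in Nudt7 replicates 1 to 4. The groups overlapped at GFP replicate 1 and Nudt7 replicate 2. The log2 fold change was −0.28 (SE 0.12, edgeR adjusted p = 0.581), and from protein-coding transcripts alone it was −0.38. Atg4c, an ATG4 protease gene (chromosome 4, 99193934 to 99259787, plus strand), stood at 12.8, 11.4, 11.4 and 10.6 CPM in GFP replicates 1 to 4 and at 10.2, 9.27, 9.31 and 10.4 CPM in Nudt7 replicates 1 to 4. The groups did not overlap, with a small gap between GFP replicate 4 and Nudt7 replicate 4. The log2 fold change was −0.23 (SE 0.13, edgeR adjusted p = 0.664). The highest positive values of the 39 genes were also in this step, 0.35 for Atg10 (SE 0.18) and 0.31 for Atg4a (SE 0.20), neither with an unadjusted p under 0.05. Atg4a was 0.07 without Nudt7 replicate 3, which had 13.3 CPM against 6.89 to 8.21 CPM in the other Nudt7 livers.

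**Figure D3:**
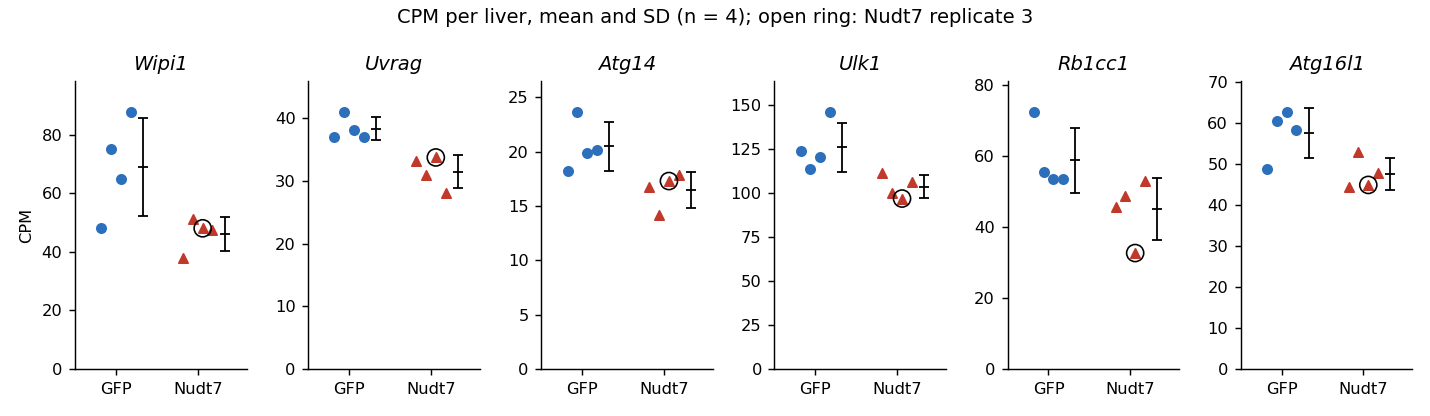
CPM in each liver for the 6 genes with an unadjusted p under 0.05, with the mean and SD of each group (n = 4); vertical axes start at 0 and differ between panels, and open rings mark Nudt7 replicate 3. Groups overlap for Wipi1 and Atg16l1 and are apart for Uvrag, Atg14, Ulk1 and Rb1cc1, where Nudt7 replicate 3 is the lowest liver only for Ulk1 and Rb1cc1.

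The ATG8 genes, cargo receptors and lysosomal genes had none with an unadjusted p under 0.05. In Nudt7 replicate 3 all 5 ATG8 genes and 7 of the 10 conjugation enzyme genes were at the highest CPM of the 4 Nudt7 livers, against 2 of 5 for the ULK1 complex. Map1lc3b stood at 270 CPM there and at 142 to 155 CPM in the other Nudt7 livers, and its log2 fold change was 0.12 with that library and −0.15 without it. Map1lc3a was at 74.8 CPM in that library against 34.3 to 50.6 CPM, and its value went from 0.15 to −0.10. Gabarap was at 193 CPM against 113 to 127 CPM, and its value went from 0.21 to 0.01. The direction of the LC3 genes between the groups thus rested on 1 library. Sqstm1 had a log2 fold change of 0.07 (SE 0.15), and −0.02 without that library. Nbr1 (−0.16, SE 0.13), Optn (−0.07, SE 0.11), Tax1bp1 (0.05, SE 0.12), Lamp1 (0.15, SE 0.14), Lamp2 (−0.01, SE 0.13), Tfe3 (−0.18, SE 0.13) and Tfeb (−0.16, SE 0.15) completed these steps together with Calcoco1, whose estimate was within 0.01 of 0 (SE 0.12). Without Nudt7 replicate 3, Lamp1 was at 0.01, Tax1bp1 at 0.0068 and Optn at −0.04.

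Fold changes of the 39 genes went with transcript length. Across the 39 genes Spearman's correlation between the log2 fold change and the mean effective transcript length was −0.56, given as a description because genes share the same 8 libraries and are not replicates. Over all genes tested it was −0.31. Without Nudt7 replicate 3 the values were −0.29 for the 39 genes and 0.03 for all genes. The ATG8 genes were mostly short and the genes of the early steps mostly longer, so that length and step cannot be fully told apart among these genes. When each library's smooth trend with length was removed, 13 of the 15 early genes were still negative, with a median of −0.14, and 4 genes had an unadjusted p under 0.05 (Ulk1, Rb1cc1, Wipi1 and Atg16l1). Uvrag and Atg14 then had log2 fold changes of −0.23 and −0.25. The part of length in the results was not tested beyond these values.

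**Figure D4:**
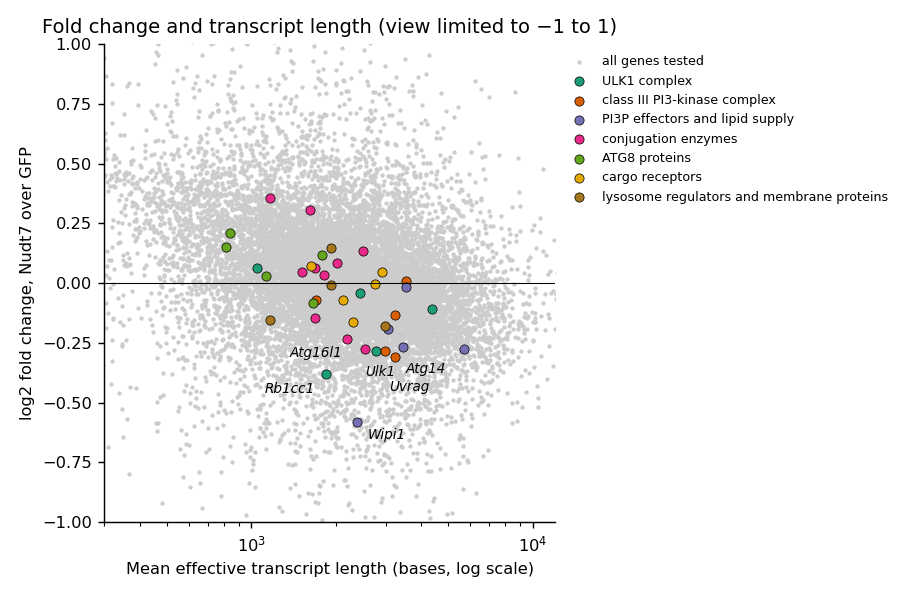
log2 fold change against mean effective transcript length in bases (log scale) for the 39 genes, coloured by step, and for all 13678 genes tested (grey, view limited to −1 to 1). The ATG8 genes lie toward the short end, between −0.08 and 0.21, and the genes with an unadjusted p under 0.05, which are named, lie at middle and greater lengths.

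On the TPM scale, which is not adjusted for composition between libraries, the 39 genes together summed to 2566 to 2693 TPM in GFP livers and 2274 to 2447 TPM in Nudt7 livers, without overlap. That difference came with a shift of the scale itself: the median log2 ratio of mean TPM was −0.11 over all genes tested and −0.19 over the 39, and 66.9% of all genes tested were lower in mean TPM in Nudt7 livers, as were 35 of the 39. In TMM-scaled CPM the sums overlapped, at 3484 to 3944 in GFP livers and 3422 to 4081 in Nudt7 livers. In TPM, 3 genes had groups apart, Rb1cc1, Atg14 and Atg4c, each lower in Nudt7 livers. The share of all genes tested with groups apart in TPM is not given here, so this count has no background beside it. These 3 genes were also apart in CPM, which rests on the same reads and so adds no support. Summed TPM in Nudt7 livers was 131 ± 22.7 for the ULK1 complex, 71.5 ± 10.6 for the PI3-kinase complex, 122 ± 20.5 for the PI3P effectors, 189 ± 9.29 for the conjugation enzymes, 633 ± 48.8 for the ATG8 genes, 672 ± 67.8 for the cargo receptors and 581 ± 23.5 for the lysosomal genes (SD, n = 4).

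The share of a gene's leading transcript was compared for the 32 genes with at least 2 transcripts at a mean of 1 TPM or more; the other 7 had a single one. Exact permutation tests over the 70 splits of the 8 livers, two-sided, can give no p below 0.0286, and 2 genes reached it, with an adjusted p of 0.457 over the 32. An adjusted p under 0.05 would have needed at least 19 of the 32 genes at that smallest p, so the adjusted values say little here. Atg4b-204, a transcript annotated as a decay target, held 28.2 ± 5.60% of Atg4b TPM in Nudt7 livers and 19.7 ± 4.99% in GFP livers. Tfe3-201, a coding transcript, held 24.1 ± 10.5% of Tfe3 TPM in GFP livers but 10.9 ± 4.95% in Nudt7 livers (SD, n = 4). In both genes the groups were apart. Lamp2 has coding transcripts that differ in their last exon and so in the membrane anchor of the protein. Lamp2-201 stood at 171 TPM in GFP livers and 187 TPM in Nudt7 livers, Lamp2-202 at 144 and 125 TPM, and Lamp2-203 at 5.52 and 5.24 TPM. The share of Lamp2-201 was 57.3 ± 3.61% in Nudt7 livers and 51.3 ± 4.77% in GFP livers, with groups that overlapped (exact permutation p = 0.0571, adjusted p = 0.549).

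The rest of the pathway was followed in 8 lists with 171 tested genes, none of which passed the edgeR test. Over all genes tested, 4.03% were lower and 4.25% higher at an unadjusted p under 0.05. Groups were apart for 3.00% lower and 2.74% higher. Of 15 other autophagy core and accessory genes, 3 had positive and 12 negative fold changes, with a median of −0.11 and 0 at an unadjusted p under 0.05; Ambra1, a regulator of the Beclin 1 complex, was at −0.16 (SE 0.12). Of 14 fusion genes, 6 were positive and 8 negative with a median of −0.02, and 1 had an unadjusted p under 0.05, Plekhm1, an adaptor that tethers autophagosomes to lysosomes (−0.39, SE 0.12, edgeR adjusted p = 0.372). Receptors for organelles and ferritin numbered 15 tested (7 positive, 8 negative, median −0.03), and 3 of them were lower at an unadjusted p under 0.05. Retreg1, the receptor for endoplasmic reticulum, stood at 235 ± 98.7 CPM in GFP livers and 109 ± 15.9 CPM in Nudt7 livers (SD, n = 4; log2 fold change −1.11, SE 0.27, edgeR adjusted p = 0.190). Ncoa4, the receptor for ferritin, stood at 299 ± 36.6 and 207 ± 16.6 CPM, with groups apart (−0.53, SE 0.13, edgeR adjusted p = 0.209). Bnip3, a mitochondrial receptor, was at −0.51 (SE 0.15, edgeR adjusted p = 0.368), also with groups apart. With DESeq2 both Retreg1 and Ncoa4 had an adjusted p under 0.05. The share of all genes tested that passed with DESeq2 is not given here, for these or for other genes named with that test. Calcoco2 was at 0 in all 8 libraries.

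Of 33 genes of mTORC1, TSC and AMPK control, 14 were positive and 19 negative with a median of −0.03, and at an unadjusted p under 0.05 there were 2 higher and 3 lower. Ddit4, whose product REDD1 restrains mTORC1, stood at 72.1, 106, 25.8 and 152 CPM in GFP replicates 1 to 4 and at 21.9, 19.1, 30.3 and 14.1 CPM in Nudt7 replicates 1 to 4. GFP replicate 3 lay within the Nudt7 range and the other GFP livers above it. The log2 fold change of Ddit4 was −2.07 (SE 0.46, edgeR adjusted p = 0.179), and it passed with DESeq2. It also passed without GFP replicate 3, but that fit leaves out the only GFP liver within the Nudt7 range and so adds no support. Sesn1, another restraint on mTORC1, was at −1.22 (SE 0.35, edgeR adjusted p = 0.349) and passed with DESeq2, and Lamtor1, a part of the lysosomal anchor of mTORC1, at 0.48 (edgeR adjusted p = 0.485). Lamtor1 was at 0.29 without Nudt7 replicate 3, which had 42.2 CPM against 23.2 to 28.8 CPM in the other Nudt7 livers. Of 14 transcriptional regulators of autophagy, 5 were positive and 9 negative with a median of −0.19, led by Atf4 (−0.44, SE 0.13, edgeR adjusted p = 0.361), Foxo3 (−0.43) and Nfe2l2 (0.26). Lysosomal hydrolases and activators were positive in 32 of 40 genes with a median of 0.09, which was 0.0028 without Nudt7 replicate 3, and 2 were higher at an unadjusted p under 0.05. Naglu was at 0.47 (0.28 without that library) and Lipa, the acid lipase that digests lipid droplets, at 0.34 (SE 0.14, edgeR adjusted p = 0.559). The 24 genes of the lysosomal membrane and transport (13 positive, 11 negative) had a median of 0.03, with Gnptab (0.40), Tmem192 (0.43) and Gnptg (0.41) the ones with the smallest p (0.45, 0.27 and 0.19 without Nudt7 replicate 3), and the 16 vacuolar ATPase genes (10 positive, 6 negative, 0 at an unadjusted p under 0.05) had a median of 0.09, which was −0.08 without that library.

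**Figure D5:**
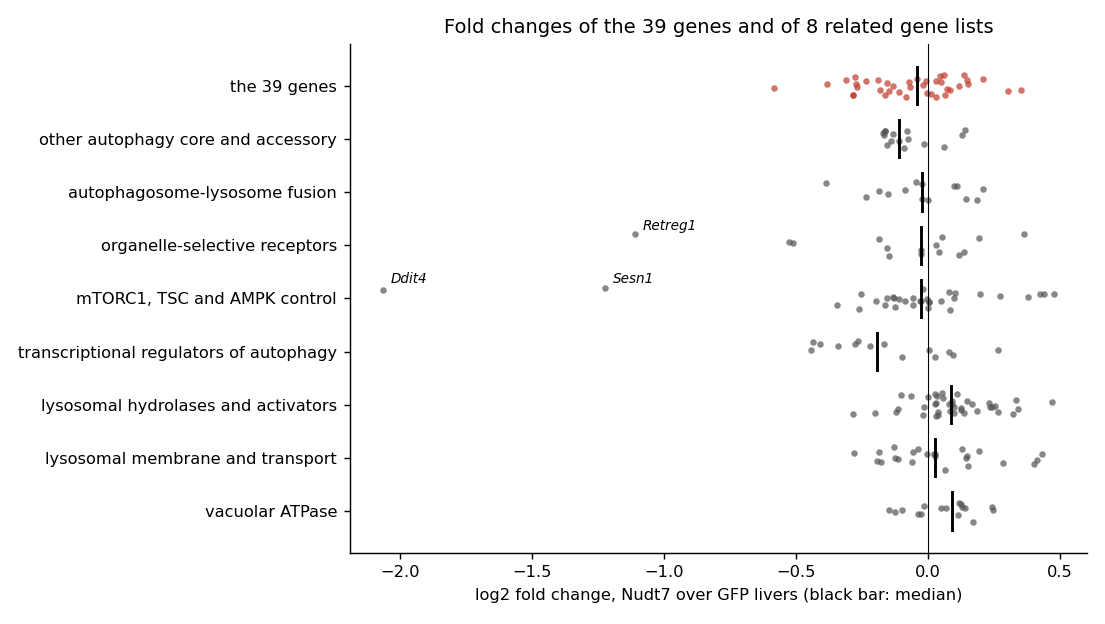
log2 fold change, Nudt7 over GFP livers, of the 39 genes (red) and of the tested genes of 8 related lists (grey); black bars are medians. Medians lie between −0.19 and 0.09, and Ddit4, Sesn1 and Retreg1 lie farthest from 0, none of them with an edgeR adjusted p under 0.05.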

How the data were processed

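The submitters' processing notes name FastQC, Salmon, DESeq2 and GRCm38 for the authors' processing; no version, index or option was found in the sources used here. Each library had 1 file with, per the file headers, estimated counts (not normalised), TPM and effective length in bases for every transcript; the authors' TPM sum to 1e+06. GENCODE M21 named 107987 of 109282 transcripts, and the remaining ones (0.552% to 1.06% of reads) were set aside. Counts were added up per gene and rounded to whole numbers. Groups were compared with edgeR 4.0.16 (quasi-likelihood, robust, TMM, filterByExpr, two-sided, no covariates), with Benjamini-Hochberg adjustment over 13678 genes and a threshold of 0.05. Dispersion corresponded to a biological coefficient of variation of 0.196, with 11.5 total degrees of freedom at the median. Alternatives used limma 3.58.1, DESeq2 1.42.0, other scalings, no filter, length offsets and 7 libraries; fold changes from protein-coding transcripts alone were added after seeing the data. Intervals include variation between livers, and PCR copies were not separated from molecules. The procedure was tested on simulated data. Shared sequence was counted in words of 31 bases, and promoter windows came from RefSeq (GRCm38.p6).

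The 39 genes and all lists were chosen with earlier results of these data known. Values in every liver are given for genes called, with an unadjusted p under 0.05, with groups apart, or with the highest mean TPM of their step. Of the other pathway lists, called genes and up to 3 genes with the smallest p could be named; the per-liver values of Ddit4 were added after they were seen.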

Additional observations from a re-analysis of the deposited data

Results flagged for a closer look

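Among the 78 sets of 4 livers (39 genes in each group), 6 held a liver far from the other 3 by Dixon's criterion; chance gives about 1 in 20. In GFP livers, Rb1cc1 stood at 72.3 CPM in replicate 1 against 53.5 to 55.4 CPM in the others. In Nudt7 livers, replicate 3 was high for Atg12 (39.1 CPM against 25.5 to 27.2), Map1lc3b (269.6 CPM against 142 to 155) and Lamp1 (472 CPM against 323 to 346). Pik3c3 was low in Nudt7 replicate 2 (14.0 CPM against 17.3 to 17.9), and Nbr1 was high in Nudt7 replicate 4 (279.98 CPM against 213 to 218).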

How the results depend on the processing

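No gene of the 39 had an adjusted p under 0.05 under any of the 17 alternatives run. The median log2 fold change of the 39 genes was −0.04, −0.078 with sample weights in limma-voom, and −0.087 (without Nudt7 replicate 3) to −0.014 when 1 library was left out. The number of genes lower at an unadjusted p under 0.05 was 6, and 2 to 4 when 1 library was left out. It was 2 without Nudt7 replicate 1, GFP replicate 2 or GFP replicate 3, and 3 without GFP replicate 4. These are not all among the 6: Atg2a entered without Nudt7 replicate 2 and Nbr1 without Nudt7 replicate 4. The number of higher genes was 0 to 1 (Atg10, without Nudt7 replicate 2). With sample weights in limma-voom 7 genes were lower, with Atg2b and Atg4d but without Ulk1. With protein-coding transcripts only, added after seeing the data, there were 4 (Ulk1, Atg14, Wipi1, Atg16l1), and 4 without the filter on low counts or with the length trend removed. Fewer livers enter each left-out fit; otherwise the cause was not tested. No paired analysis was possible because the labels give the livers no shared replicate numbers. Depth limits the lowest genes, such as Atg10, and the number of livers the size of change that can be resolved.

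Of 663 fold changes, 46 reversed, in 15 genes with values of at most 0.15 in size. With DESeq2 size factors Calcoco1 was at 0.0061 and Lamp2 at 0.0014. With upper quartile scaling Calcoco1 was at 0.0091 and Lamp2 at 0.0056. With the DESeq2 test Calcoco1 was at 0.0056 and Lamp2 at 0.0013. With limma-voom Lamp2 was at 0.0039. With sample weights Atg101 was at −0.090, Atg4b at −0.043, Atg5 at −0.038, Atg12 at −0.043, Map1lc3a at −0.057, Map1lc3b at −0.10, Tax1bp1 at −0.0014 and Lamp2 at 0.010. With effective length offsets Wipi2 was at 0.0077, Sqstm1 at −0.0073 and Lamp2 at 0.099. With the length trend removed Atg101 was at −0.043, Wipi2 at 0.064, Map1lc3a at −0.017, Gabarapl2 at −0.058 and Calcoco1 at 0.036. When 1 library was left out, values ran from −0.042 to 0.015 for Wipi2, −0.058 to 0.079 for Calcoco1, −0.045 to 0.063 for Pik3r4, −0.080 to 0.080 for Lamp2, −0.087 to 0.18 for Atg101, −0.034 to 0.096 for Atg4b, −0.035 to 0.089 for Atg5, −0.070 to 0.16 for Atg12, −0.098 to 0.30 for Map1lc3a, −0.15 to 0.23 for Map1lc3b, −0.057 to 0.16 for Gabarapl2, −0.020 to 0.17 for Sqstm1, −0.084 to 0.046 for Atg13 and −0.035 to 0.13 for Atg3.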
